A study of Mus musculus with 6 samples.

Results

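The genes for 4 enzymes that remove methyl groups from lysine 4 of histone H3 (H3K4), Kdm5a, Kdm5b, Kdm1a and Kdm1b, were examined for H3K4me3 and for ASH2L in mouse embryonic stem cells. They were chosen by name from 21938 protein-coding genes of GENCODE vM21 on chromosomes 1 to 19, X and Y, and every peak that overlapped a gene or the 5 kb upstream of it by at least 1 bp was taken. H3K4me3 and HA-tagged ASH2L were profiled by CUT&RUN, in which an antibody-guided nuclease cuts out the DNA near its target for sequencing. The cells were E14 cells that the labels call HA-Ash2L knock-in, cultured in serum with LIF and given doxycycline for 48 h. According to the study's methods, the HA-ASH2L transgene was inserted by piggyBac transposition under a doxycycline-inducible promoter and single colonies were picked. Both the anti-HA and the anti-H3K4me3 group had 2 samples, and the 2 anti-HA samples of the WT parental E14 cells, also given doxycycline, were not analysed here.

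The level of H3K4 methylation at a gene start depends on opposing enzymes. Methyl groups are added by MLL and SET1 complexes, of which ASH2L is a core subunit. KDM5A and KDM5B are JmjC-domain demethylases that act on the trimethyl and dimethyl forms. KDM1A, also called LSD1, and KDM1B, also called LSD2, are flavin-dependent amine oxidases that act on the dimethyl and monomethyl forms. KDM1A works with RCOR corepressors and histone deacetylases, whereas KDM1B is known for its role in setting maternal imprints in oocytes.

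Peaks had been called on merged duplicates without a control library. All values are therefore single values with no replicate spread, and no test was run. The ASH2L list held 2464 peaks from 25677963 tags after filtering, and 0.398% of these tags lay in peaks. The H3K4me3 list held 59927 peaks from 27328071 tags, with 45.7% of the tags in peaks. Tags, the mapped reads counted in a peak, are given with exact Poisson 95% intervals that cover counting error only. Ranks are counted from the top of a list, and a percentile is the share of peaks at or below a value, ties counted by mid-rank. The cell type label was checked with the mark itself. An H3K4me3 promoter peak was listed for 3 of 8 pluripotency genes, Esrrb, Klf4 and Zfp42, and none was listed for Pou5f1, Nanog, Sox2, Dppa5a and Tdgf1. At Esrrb the peak belonged to a further transcript start, and the nearest H3K4me3 peak was 4069 bp from the gene start. Of 7 genes of differentiated cells, 3 had a promoter peak, with lengths of 1083 to 1742 bp against 2746 to 5917 bp for the 3 pluripotency genes. The absence of a peak from the list thus covers genes that define the labelled cells, and it is reported here only as no peak called.

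H3K4me3 peaks were called at the promoters of Kdm5a, Kdm1a and Kdm1b but not at that of Kdm5b, whose nearest peak ended 2194 bp upstream of the gene start. ASH2L peaks were called at the promoters of Kdm5a and Kdm1a, within the upstream H3K4me3 peak of Kdm5b, and nowhere in Kdm1b. The promoter window of each transcript of a gene covered 1000 bp before its start and 100 bp after it. With this definition, 3 of 4 genes had an H3K4me3 promoter peak, beside 68.4% of protein-coding genes, a share of the same order. An ASH2L promoter peak was found at 2 of 4, beside 7.67% of protein-coding genes. An ASH2L peak in the gene or 5 kb upstream was found for 3 of 4, beside 10.4% of protein-coding genes and 16.6% of the 2715 protein-coding genes whose length was within the range of the 4 genes, 41.781 to 80.451 kb. With 4 genes that had been chosen with earlier results known, these shares are descriptions.

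**Figure D1:**
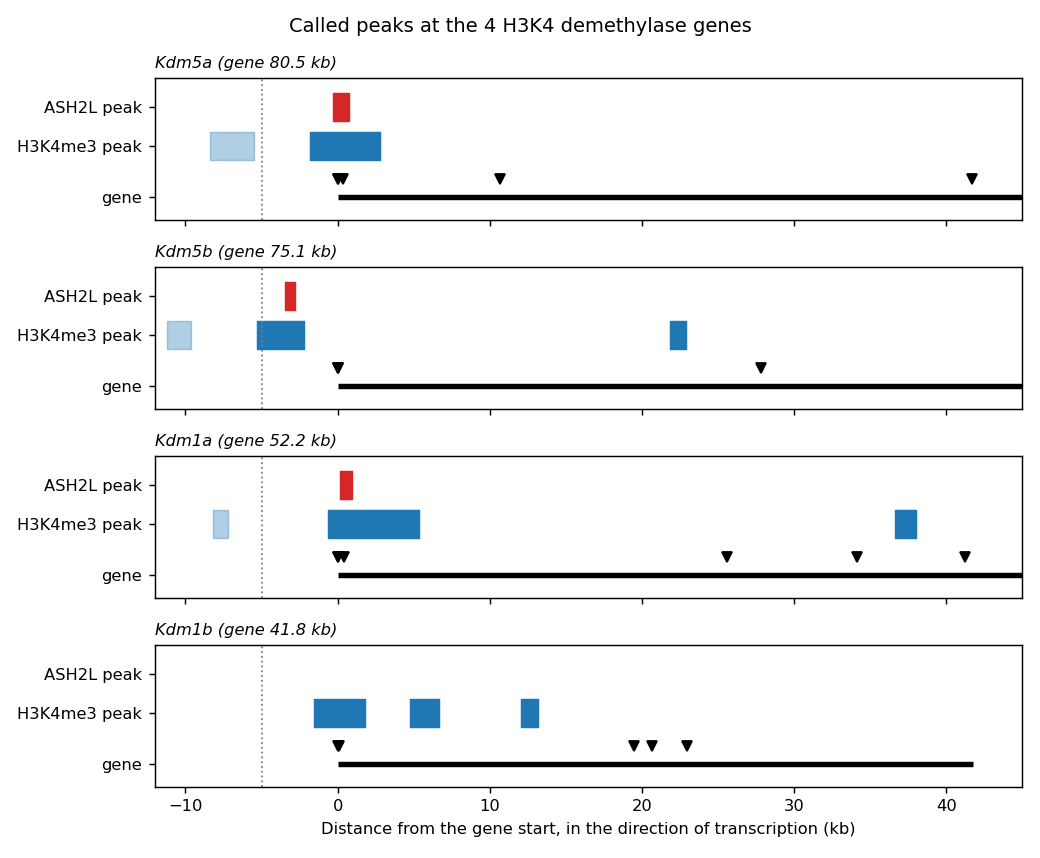
Called peaks of both lists at each gene, by distance in kb from the gene start in the direction of transcription; black bars show the gene (drawn to 45 kb), triangles the GENCODE transcript starts, and pale bars the peaks that lie outside the gene and the 5 kb upstream of it (dotted line). The H3K4me3 peak covers the gene start of Kdm5a, Kdm1a and Kdm1b, whereas that of Kdm5b lies upstream of the start, and Kdm1b has no ASH2L peak.

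Kdm5a (ENSMUSG00000030180.15) lies on the plus strand at chr6:120364124-120444574 (mm10), with 28 exons in its main transcript. It had a single H3K4me3 peak, at chr6:120362337-120366940. This peak was 4604 bp long and held 937 tags (95% interval 878 to 999). It reached from −1787 to 2816 bp relative to the gene start, so that 61.2% of its length was downstream of the start, and its summit lay in exon 1 at 303 bp. Among all 59927 H3K4me3 peaks it ranked 2804 by length and 999 by tags, at percentiles 95.3 and 98.3. Wide and tag-rich peaks are frequent at promoters, and among the 13497 H3K4me3 promoter peaks of protein-coding genes the percentiles were 85.3 by length and 93.3 by tags. The peak thus ranked above the median promoter peak, with 2853 bp and 449 tags, on both measures. A further H3K4me3 peak of 2943 bp and 561 tags, from −8.417 to −5.475 kb, was just outside the 5 kb limit and was not counted.

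The ASH2L peak of Kdm5a, at chr6:120363792-120364883, was the longest of the 3 and held the most tags. It was 1092 bp long, from −332 to 759 bp, and held 53 tags (39.7 to 69.3), with its summit in exon 1 at 85 bp. It ranked 233 of 2464 by length and 224 by tags, at percentiles 90.5 and 90.6. The median ASH2L promoter peak had 795.5 bp and 36 tags, the latter below the interval for Kdm5a. Ccdc77, on the opposite strand, starts 232 bp downstream of the Kdm5a start, and both the H3K4me3 and the ASH2L peak covered the starts of both genes, so that neither peak can be assigned to Kdm5a alone.

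Kdm5b (ENSMUSG00000042207.17) lies on the plus strand at chr1:134560171-134635285, with 27 exons. None of its 6 GENCODE start sites had a peak of either list in the promoter window. The leading H3K4me3 peak lay upstream at chr1:134554844-134557977, from −5327 to −2194 bp. It was 3134 bp long and held 614 tags (566 to 665), which corresponds to ranks of 8466 by length and 4257 by tags. In size it resembled a promoter peak, at percentiles 58.8 by length and 72.9 by tags of the promoter peaks, although no annotated start site of any gene lay within it. The nearest start of another gene, that of Mgat4e, was 10489 bp from the Kdm5b start. Of the 6926 protein-coding genes without an H3K4me3 promoter peak, 8.46% had a peak within 2500 bp of the gene start, as Kdm5b did.

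The only ASH2L peak of Kdm5b lay within this upstream H3K4me3 peak, at chr1:134556686-134557358. It was 673 bp long and held 32 tags (21.9 to 45.2), both close to the medians of all ASH2L peaks, 717 bp and 32 tags. By fold enrichment, tags at the summit divided by the local background of the same library, it ranked 82 of 2464 with a value of 7.72. The summits of the ASH2L and H3K4me3 peaks were 45 bp apart, at −3129 and −3174 bp. A weak H3K4me3 peak of 1102 bp and 64 tags (49.3 to 81.7) lay in intron 1, from 21818 to 22919 bp. Its p-value score, −log10 of the caller's p multiplied by 10, was 50.84, just above the cutoff of 50, and 60.0% of its sequence was annotated as repeats. RefSeq gives further Kdm5b starts at 7, 2143, 21168 and 22944 bp from the GENCODE gene start. None of these lay in an H3K4me3 peak, but the intronic peak ended 25 bp short of the last of them.

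The sequences at the Kdm5b start and at the ASH2L summit upstream are shown because the gene start was CpG-rich without a peak while the upstream site carried both peaks. CpG dinucleotides are in capitals, and both are on the plus strand of GRCm38.p6, read 5′ to 3′. The first gives the 250 bases before the RefSeq start (chr1:134559928-134560177) and the second the 200 bases around the ASH2L summit (chr1:134556943-134557142).
Kdm5b start: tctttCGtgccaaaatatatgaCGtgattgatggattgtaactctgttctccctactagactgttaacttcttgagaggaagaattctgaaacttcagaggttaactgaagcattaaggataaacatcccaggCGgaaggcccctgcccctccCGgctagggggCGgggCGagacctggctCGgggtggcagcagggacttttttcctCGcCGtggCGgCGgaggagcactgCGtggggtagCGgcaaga
Kdm5b upstream ASH2L summit: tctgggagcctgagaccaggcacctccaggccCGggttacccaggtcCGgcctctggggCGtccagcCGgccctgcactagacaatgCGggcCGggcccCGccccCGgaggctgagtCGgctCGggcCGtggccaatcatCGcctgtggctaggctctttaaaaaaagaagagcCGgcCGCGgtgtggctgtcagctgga
The first sequence holds 13 CpGs and the second 15. In bins of 250 bp, CpGs near the gene start rose to 32 in the bin from 500 bp, the highest count within 6.0 kb of the start. A separate cluster of 14 to 18 CpGs per bin lay from −4000 to −3000 bp, beneath the upstream peaks.

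Kdm1a (ENSMUSG00000036940.15) lies on the minus strand at chr4:136550540-136602723, with 19 exons. Its H3K4me3 promoter peak, at chr4:136597373-136603351, was the longest of the 4 genes. It was 5979 bp long and held 792 tags (738 to 849), which placed it at rank 987 by length and 1998 by tags, at percentiles 98.4 and 96.7. It reached from −628 to 5350 bp, with 89.5% of its length downstream of the start, the most one-sided of the 3 promoter peaks. Per kb it held 132 tags (123 to 142), fewer than Kdm5a with 204 (191 to 217) and Kdm1b with 223 (207 to 239), and the median promoter peak had 152. The extra length was thus not matched by tags. A second H3K4me3 peak, in intron 8 from 36625 to 37981 bp, held 68 tags (52.8 to 86.2) over 1357 bp.

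The ASH2L peak of Kdm1a, at chr4:136601792-136602591, lay downstream of the gene start. It reached from 132 to 931 bp, with its summit in intron 1 at 563 bp, and was 800 bp long with 34 tags (23.5 to 47.5). Its percentiles among ASH2L promoter peaks were 50.9 by length and 42.1 by tags, near the middle of that set, but 8.79 by fold enrichment, with a value of 4.05, and 14.03 by p-value score, with 53.57. It lay outside the window of the first start and counted as a promoter peak through the windows of further Kdm1a transcript starts, of which that 415 bp downstream of the first start lay within the peak. The 250 bases before the start (chr4:136602724-136602973) and the 200 bases at the ASH2L summit (chr4:136602061-136602260) are shown because ASH2L had its summit inside the gene. Both are from the minus strand and hold 21 and 18 CpGs.
Kdm1a start: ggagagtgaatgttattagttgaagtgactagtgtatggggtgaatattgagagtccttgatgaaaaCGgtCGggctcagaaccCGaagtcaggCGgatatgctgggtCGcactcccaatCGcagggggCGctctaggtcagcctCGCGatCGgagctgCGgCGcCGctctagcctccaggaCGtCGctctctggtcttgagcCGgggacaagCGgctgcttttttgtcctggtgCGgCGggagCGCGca
Kdm1a ASH2L summit: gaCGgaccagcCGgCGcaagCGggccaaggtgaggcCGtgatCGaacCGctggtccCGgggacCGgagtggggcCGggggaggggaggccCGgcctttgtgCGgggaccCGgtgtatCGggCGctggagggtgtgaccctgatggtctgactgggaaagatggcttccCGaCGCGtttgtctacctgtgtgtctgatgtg
The densest bin, from 0 to 250 bp, held 42 CpGs, the highest count in any bin of the 4 genes, and it lay between these sequences.

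Kdm1b (ENSMUSG00000038080.17) lies on the plus strand at chr13:47043499-47085279, with 21 exons. Its H3K4me3 promoter peak, at chr13:47041927-47045295, was the shortest of the 3 promoter peaks, with 3369 bp, and held 750 tags (697 to 806). It ranked 7033 by length and 2387 by tags, at percentiles 88.3 and 96.0. Of all promoter peaks, 34.9% were at least as long. In tags per kb and in p-value score, however, it was near the top of the promoter peaks, at percentiles 99.1 and 99.0. Its score of 1179.16 ranked 141 of 59927. The peak spanned the start almost evenly, from −1572 to 1796 bp. Tpmt, which encodes thiopurine methyltransferase, starts 156 bp away on the opposite strand, and 6 of its start sites lay in the same peak, so that tags of the 2 divergent genes cannot be separated.

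Kdm1b also had intragenic H3K4me3 peaks. The one in intron 3, from 4747 to 6672 bp, was 1926 bp long with 243 tags, and the one in intron 6, from 12049 to 13194 bp, was 1146 bp long with 71 tags. With the promoter peak this made 3 H3K4me3 peaks, against 2 for Kdm5b, 2 for Kdm1a and 1 for Kdm5a. At least 2 H3K4me3 peaks were found for 43.2% of protein-coding genes, so that more than 1 peak was common. No ASH2L peak was called in Kdm1b, and the nearest was 1535565 bp from its start. The 250 bases before the start (chr13:47043249-47043498, plus strand) are shown as the promoter of the gene that had H3K4me3 and no ASH2L peak.
Kdm1b start: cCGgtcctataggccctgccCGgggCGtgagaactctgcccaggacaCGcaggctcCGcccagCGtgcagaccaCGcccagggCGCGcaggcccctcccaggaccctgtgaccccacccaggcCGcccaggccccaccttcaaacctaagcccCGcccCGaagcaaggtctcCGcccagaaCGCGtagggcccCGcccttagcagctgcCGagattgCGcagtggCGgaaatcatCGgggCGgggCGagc
It holds 22 CpGs, beside 21 in the sequence before the start of Kdm1a, which had an ASH2L peak.

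**Figure D2:**
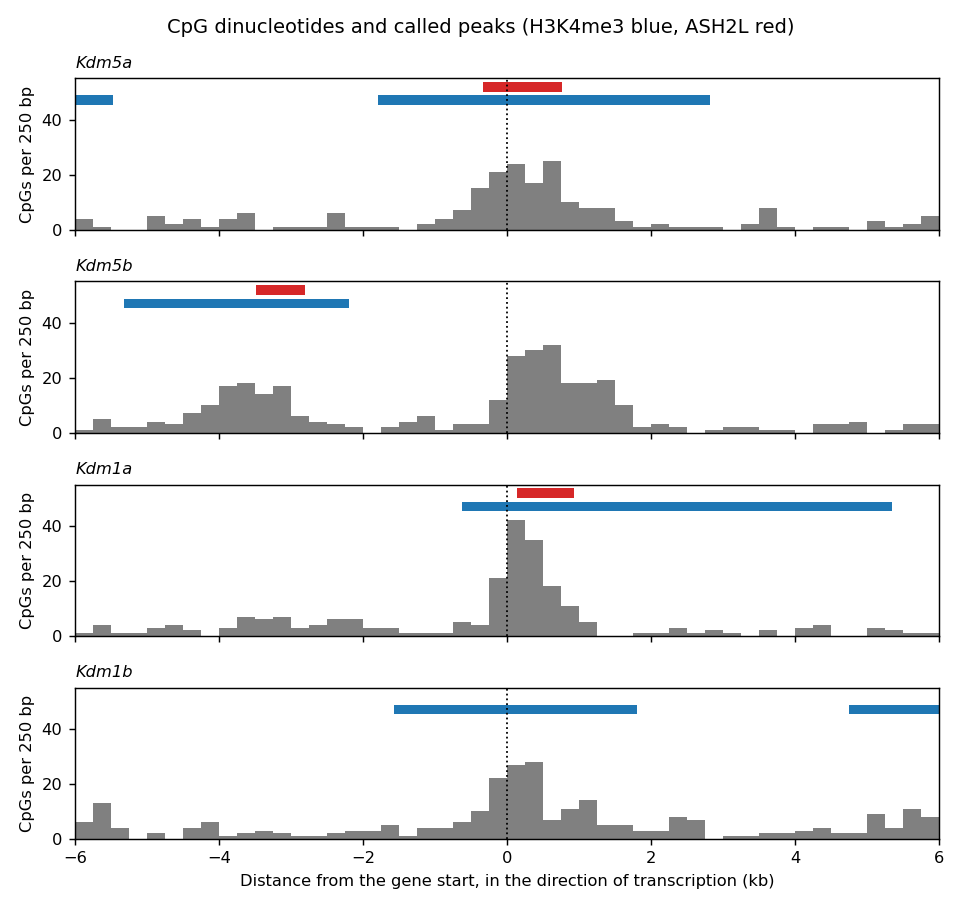
CpG dinucleotides per 250 bp (grey bars) within 6.0 kb of each gene start, with called H3K4me3 peaks (blue) and ASH2L peaks (red) above, by distance in kb. CpGs are dense at all 4 starts, and at Kdm5b a second cluster of up to 18 CpGs lies beneath the upstream peaks.

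RefSeq promoter sequences of 300 bases, from 250 before to 50 after the start, were matched for 3 of 4 genes, Kdm5b, Kdm1a and Kdm1b. They held 17, 29 and 26 CpGs, against a median of 7.0 over the 32544 promoters of the table, at percentiles 69.2, 87.6 and 83.7. Short motifs were counted on both strands. GGGCGG, the core of the GC box, was found 6 times at Kdm1b, 1 time at Kdm5b and 0 times at Kdm1a, and it is present in 35.9% of promoters of this length. CCAAT was found 1 time, at Kdm1a, and is present in 37.4%. The TATA box TATAAA, present in 13.6%, was found in none of the 3 promoters. The ETS-type motif CCGGAA, present in 15.0%, and the NRF1-type motif GCGCATGC, present in 2.73%, were not found either. These counts describe letters within the window only.

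Each of the 3 ASH2L peaks lay entirely within an H3K4me3 peak. They covered 23.7% of the length of the H3K4me3 peak at Kdm5a, 21.5% upstream of Kdm5b and 13.4% at Kdm1a. The ASH2L peaks were thus much shorter than the domains around them. The summits of both profiles were 218 bp apart at Kdm5a, 45 bp at Kdm5b and 586 bp at Kdm1a. ASH2L peaks were also richer in CpGs than the H3K4me3 peaks around them, with 8.97, 5.65 and 10.1 CpGs per 100 bp at Kdm5a, Kdm5b and Kdm1a against 3.28, 3.45 and 2.73. The medians were 8.89 in ASH2L promoter peaks and 3.35 in H3K4me3 promoter peaks, and 7.15 and 1.95 in all peaks of the lists. The order of the 3 ASH2L peaks by tags, Kdm5a, Kdm1a and Kdm5b, was not resolved at its lower end, where the intervals of 34 and 32 tags overlapped almost fully. The interval of Kdm5a (39.7 to 69.3) also overlapped those of Kdm1a (23.5 to 47.5) and Kdm5b (21.9 to 45.2). By H3K4me3 tags, Kdm5a was above the other two promoter peaks without overlap of the counting intervals, whereas the intervals of Kdm1a and Kdm1b overlapped.

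**Figure D3:**
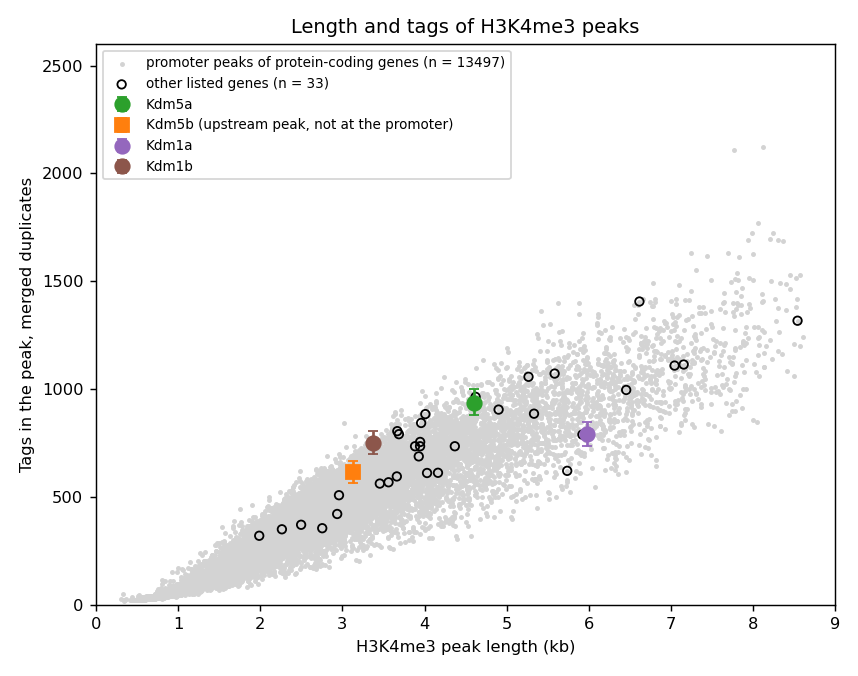
Length in kb and tags of the 13497 H3K4me3 promoter peaks of protein-coding genes (grey), of the 33 other listed genes with such a peak (open circles) and of the leading H3K4me3 peak of each demethylase gene, with 95% Poisson intervals. Kdm1b lies near the upper edge of the tags found at its length, and Kdm1a is long for its 792 tags.

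The rank of a peak depended on the measure. The H3K4me3 peaks of Kdm5a and Kdm1a were high by length and tags but at percentiles 14.6 and 12.3 of the promoter peaks by fold enrichment, with values of 4.37 and 4.22 against a median of 6.46. Kdm1b had a fold enrichment of 6.65, at percentile 53.2. By p-value score, Kdm5a with 732.42 was at percentile 64.3 and Kdm1a with 220.26 at percentile 13.0. The upstream peak of Kdm5b, which is not a promoter peak, had a fold enrichment of 4.13 and a score of 226.62, at percentiles 11.0 and 13.4 of that set. In the ASH2L list, the Kdm5a peak was high by length and tags but had a fold enrichment of 5.28. This was at percentile 49.8 of the ASH2L promoter peaks.

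**Figure D4:**
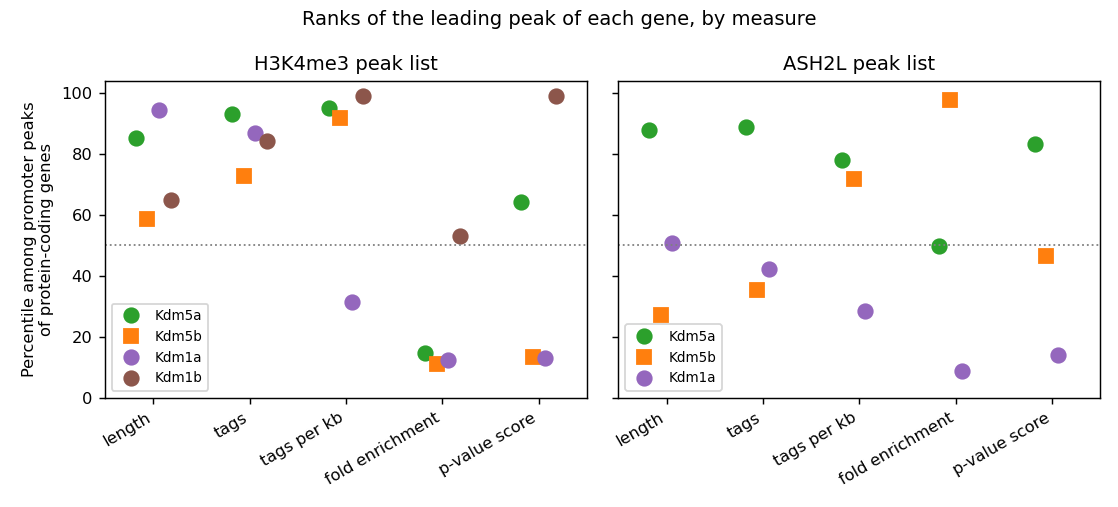
Percentile of the leading peak of each gene among the promoter peaks of protein-coding genes, for 5 measures and both lists; circles are promoter peaks, squares the upstream peaks of Kdm5b, and the dotted line is the median. In the H3K4me3 list, Kdm1a falls from 94.4 by length to 13.0 by score, whereas Kdm1b rises from 65.1 to 99.0.

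Above 2000 bp, fold enrichment and score were lower in longer promoter peaks. The median score was 769.80 for 4543 peaks of 2000 to 3000 bp, 541.59 for 1462 peaks of 4000 to 5000 bp and 282.13 for 1540 peaks of 5000 bp or more. The median fold enrichment in these bins was 7.48, 4.87 and 4.02. The caller had taken its background from up to 10000 bp around a peak in the same library. Among the 1205 promoter peaks with 750 to 937 tags, the range of the 3 promoter peaks of the demethylase genes, Spearman's rho between length and score was −0.848, as a description over peaks of the same merged library. In this set Kdm1b was at percentile 0.539 by length and 99.6 by score, Kdm5a at 42.0 and 74.6, and Kdm1a at 86.5 and 12.5. Kdm1b with 750 tags and Kdm5a with 937 set the limits of the range, so the set is not matched in tags to either. The part of peak length in the low scores of Kdm1a and of the Kdm5b upstream peak, and of the background around the Kdm5b start in the lack of a peak there, was not tested.

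**Figure D5:**
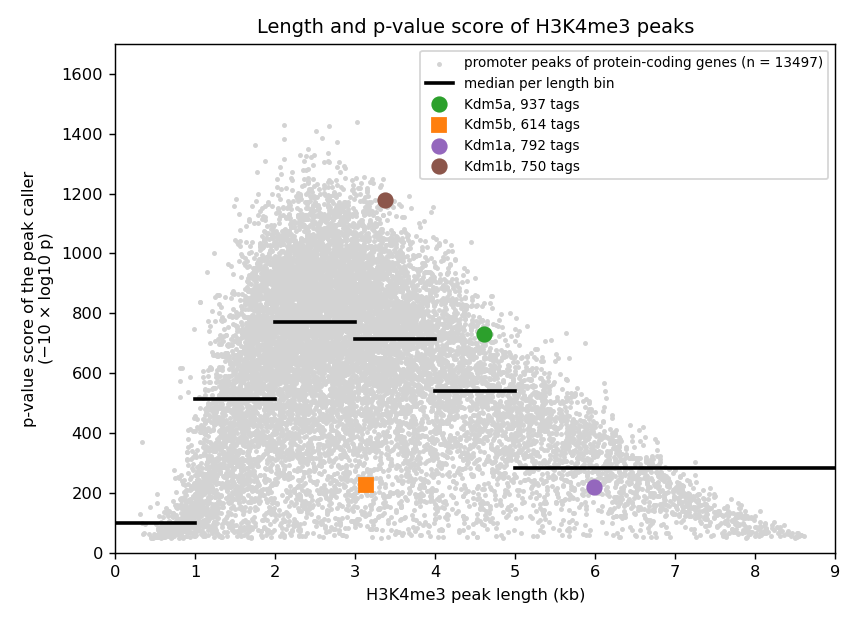
Length in kb and p-value score of the 13497 H3K4me3 promoter peaks (grey), with the median score of each length bin (black lines) and the leading peak of each demethylase gene (square, the upstream peak of Kdm5b). Above 3 kb the bin medians fall with length, and Kdm1b with 750 tags lies far above Kdm1a with 792 tags.

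The 4 genes were set beside 39 further genes that encode related demethylases, their partners and the opposing methyltransferases. Of these, 33 had an H3K4me3 promoter peak, with a median of 4010 bp and 755 tags, and 6 had an ASH2L promoter peak. The 3 promoter peaks of the demethylase genes had a median of 4604 bp and 792 tags, within the range of the listed genes, 1988 to 8541 bp. Of the 2 other KDM5 genes, Kdm5c on chromosome X had a promoter peak of 2937 bp and 421 tags without ASH2L, and Kdm5d on chromosome Y had none. No promoter peak was listed for any of the 183 protein-coding genes of chromosome Y, so that Kdm5d did not stand apart there.

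Among 18 other histone demethylase genes, 16 had an H3K4me3 promoter peak, from 1988 bp at Riox2 to 8541 bp at Kdm3b, and Kdm6b and Uty had none. An ASH2L promoter peak was found at Kdm2a with 29 tags, Kdm2b with 35 and Kdm3b with 41, all fewer than the 53 of Kdm5a. KDM2A and KDM2B are JmjC-domain enzymes that bind CpG islands through a CXXC zinc finger. Of 9 genes for partners of KDM1 enzymes, 7 had an H3K4me3 promoter peak, from 2498 bp at Hdac2 to 7155 bp at Phf21a. Rcor2 and Hmg20b had none, with the nearest peaks 24861 and 2718 bp from the gene start. Among them, Rcor3 had an ASH2L promoter peak with 30 tags and Phf21a one with 38, both fewer than Kdm5a. Rcor1, which encodes the CoREST scaffold of KDM1A, and Glyr1, which encodes the cofactor of KDM1B, had no ASH2L promoter peak.

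All 4 genes for partners of KDM5A in its SIN3B complex had an H3K4me3 promoter peak, from 2264 bp at Sin3b to 7044 bp at Morf4l1, and none had ASH2L. Of the 6 H3K4 methyltransferase genes, 5 had an H3K4me3 promoter peak, from 3885 bp at Setd1a to 6455 bp at Kmt2d, and 0 had an ASH2L promoter peak. Setd1b had no H3K4me3 promoter peak, with the nearest peak 4219 bp from its start. That distance was larger than the 2194 bp of Kdm5b and the 2718 bp of Hmg20b, and beyond the 2500 bp used above for Kdm5b. By log2 length and log2 tags, over 35 genes, the peak nearest to that of Kdm5a was at Kdm2a, with 4633 bp and 928 tags, followed by Kmt2b with 4622 bp and 964 tags. The nearest to Kdm1a was Riox1, with 5922 bp and 789 tags, followed by Kdm4c with 5333 bp and 886 tags. The H3K4me3 promoter peaks of Kdm4c, Phf21a and Kdm2b counted through further transcript starts. Their gene starts lay 8011, 3670 and 12648 bp from the nearest H3K4me3 peak. The nearest to Kdm1b was Glyr1, with 3688 bp and 791 tags. The distances were 0.0166 for Kdm2a, 0.0149 for Riox1 and 0.151 for Glyr1, so that Kdm1b had the least similar nearest peak.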

How the data were processed

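CUT&RUN peak lists for HA-ASH2L and H3K4me3 were used, each called by the authors on merged duplicates of HA-Ash2L E14 cells. The study's methods give Bowtie2 mapping to mm10. The headers name MACS 1.4.3, no control, a p-value cutoff of 1e-05, local background within 10000 bp and 1 tag per position, whereas the submitters' processing notes name MACS 1.4, SAMtools 1.5 and HOMER 4.10. The headers' tag sizes, 151 and 142 bp, exceed the fragment limit in the study's methods, so it is not settled which fragments were counted. The labels give 100000 cells for anti-H3K4me3, where the methods give more.

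The deposited tag counts are whole numbers of tags per peak in the authors' merged libraries, not normalized. The deposited fold enrichment is the ratio to the caller's local background, and the deposited p-value score is −log10 p multiplied by 10. Tags in the lists are not comparable between ASH2L and H3K4me3, since the share of tags in peaks differed. No control library was subtracted, so regions that gather reads with any antibody remain. Without samples of their own the values have no replicate spread, and depth limits precision to the Poisson intervals given.

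Peaks were intersected by at least 1 bp with genes and transcript starts of GENCODE vM21 on GRCm38.p6 (mm10), and the promoter peak was the overlapping peak with the most tags. The members and gene lists were chosen with earlier results of these data known. Genes were named by a rule: the 4 members, neighbours starting in their promoter peaks, and from each list the genes with an ASH2L promoter peak, without an H3K4me3 promoter peak, with the widest and narrowest one, and the 2 nearest to each member by length and tags. Rcor1 and the flanking peaks were named after their values were seen. Of the genes so chosen, 1 is not reported here. The marker symbol Hbb-b1 did not match the annotation. Other windows, start sites, overlaps and rankings were tried as alternatives. Overlaps and ranks were tested on simulated data. The tools were Python 3.11.15, matplotlib 3.10.9 for figures, pysam 0.24.0 for sequences, and scipy 1.17.1, pandas 2.3.3 and numpy 2.4.6. CpGs and motifs were read from RefSeq promoter sequences and GRCm38.p6.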

Additional observations from a re-analysis of the deposited data

How the results depend on the processing

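The H3K4me3 promoter count of 3 of 4 genes was 4 with windows of 2500 bp on both sides or with RefSeq starts, and 3 with starts of protein-coding transcripts, beside 71.9%, 65.5% and 67.0% of protein-coding genes. The wider window added the upstream peak of Kdm5b with 614 tags, whereas the RefSeq starts added only its intron 1 peak with 64 tags, through the start at 22944 bp. The count was 1, Kdm1b alone, when a peak needed at least the list's median fold enrichment, and also 1, Kdm1b, when the peak midpoint had to lie in the window. Under these the share of protein-coding genes was 36.4% and 37.2%. The ASH2L promoter count of 2 was 1 with RefSeq starts and 1 with the midpoint, Kdm5a in both, and 0 with the fold enrichment minimum, beside 7.15%, 5.49% and 3.73% of protein-coding genes. The ASH2L count in the gene or 5 kb upstream, 3, was 1 with that minimum, Kdm5b, 2 without the upstream stretch and 3 with 10 kb, beside 5.13%, 9.66% and 11.2%. The 8 H3K4me3 peaks became 3 with the minimum, all at Kdm1b, 7 without the upstream stretch and 11 with 10 kb. Of 40 alternative percentiles of promoter peaks, 33 were within 1.5 times the value reported. These include every alternative that took the widest promoter peak or the 2500 bp window, which returned the same peak and thus the same percentile. The other 7 came from ranking by fold enrichment or score. The cause of these changes was not tested. No paired analysis was possible because the peaks were called on merged duplicates. The weakest ASH2L peak listed held 17 tags, but listing depended on the p-value cutoff against the local background. The Kdm1a ASH2L peak with 34 tags had a score of 53.57, near the cutoff of 50. How much ASH2L signal lay below the cutoff at Kdm1b or at the Kdm5b start cannot be told from the lists.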
